A study of Mus musculus with 4 samples.

Results

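Npas4, Npas1, Npas2 and Npas3 encode neuronal PAS domain transcription factors, and Arnt and Arnt2 encode partner proteins with which factors of this kind pair. The 6 genes were taken by symbol from the deposited expression tables, which list 22492 gene symbols, and each of the 6 had 1 row in every table. RNA came from hippocampal neurons of CD1 pups taken at postnatal day 0 and cultured for 11 days. The cultures were infected on day 4 in vitro with a lentivirus, either the empty pLKO.1 vector (vector cultures) or the same kind of virus carrying 1 short hairpin RNA against the histone demethylase gene Kdm6b (shRNA cultures). On day 11 each was left untreated or given bicuculline (50, with the unit written as µm in the labels) and 2.5 mM 4-aminopyridine for 3 h (Bic/4AP). Together the 2 drugs remove GABA-A inhibition and close potassium channels, a standard way to drive firing across a cultured network. Each of the 4 groups was 1 library, so nothing could be tested and every value describes a single library. Only 1 hairpin sequence was used, and uninfected cultures were not analysed here.

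Proteins of the bHLH-PAS class bind DNA as pairs: a regulated or cell-type-specific partner joins a common one, usually Arnt, Arnt2 or Arntl. Npas4 is an immediate-early factor of neurons, switched on by calcium entry, that pairs with Arnt or Arnt2 and is known for regulating inhibitory synapses and activity-dependent survival. Npas2 is a relative of Clock and pairs with Arntl in the circadian loop, Npas1 is a repressor found in interneurons and Npas3 acts in neural development. Arnt is the broadly expressed partner that also serves the hypoxia and dioxin receptors, and Arnt2 is its neural relative.

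Levels are given as FPKM, which scales the fragments of a gene to its transcript length and to the size of the library and so allows levels of different genes to be compared. The lower and upper bounds that the authors gave with each FPKM cover counting and read assignment in 1 library only, not variation between cultures. Differences are in log2(FPKM + 1), which understates differences of weakly expressed genes, and a gene was called 2-fold apart at a difference of at least 1. Read totals were not given in the tables, and the depth estimated from the width of the bounds was between 0.932 and 1.04 times that of the untreated vector library. Kdm6b itself stood at 40.6% of the vector level in untreated shRNA cultures and at 36.8% with Bic/4AP. The 5 neuron markers (Rbfox3, Tubb3, Snap25, Syp and Slc17a7) were present in every library, with a summed FPKM between 1168 and 1616. With Bic/4AP all 5 were lower in vector cultures, with a median difference of -0.41 and bounds apart for 5 of 5. In shRNA cultures 4 of 5 were lower, with a median of -0.15. Over all compared genes the medians were -0.07 and -0.08, and bounds were apart for 58.7% in vector cultures. The part of the neuron markers in the members' Bic/4AP differences was not tested. Astrocyte RNA was present too, with 5 markers summing to between 2087 and 2441 and Gfap highest. The 5 microglia markers summed to 28.1 and 26.98 in vector cultures and to 11.0 and 10.7 in shRNA cultures, untreated and with Bic/4AP. Tyrobp and C1qa made up most of these sums. The markers did not all go 1 way: P2ry12 was higher in shRNA cultures (1.88 against 1.43 untreated, 1.52 against 1.35 with Bic/4AP), and the others were lower. None of the 3 endothelial markers reached an FPKM of 1. In these bulk samples, fewer cells of a type and less RNA per cell cannot be told apart.

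Npas4 was the member with by far the largest difference between untreated and Bic/4AP cultures. It lies on chromosome 19 from 4984355 to 4989971 (mouse build mm9). In untreated vector cultures its FPKM was 1.52 (authors' bounds 1.32 to 1.72), and with Bic/4AP it was 340.1 (336.9 to 343.3). In untreated shRNA cultures it was 1.28 (1.09 to 1.46), and with Bic/4AP it was 359.7 (356.5 to 362.8). Both untreated libraries were thus low and both Bic/4AP libraries high, without any overlap of the bounds, with or without the hairpin. The Bic/4AP level was 223.9 times the untreated level in vector cultures, and the bounds allow between 195.5 and 261.0 times. In shRNA cultures it was 281.4 times as high (244.0 to 331.4). Untreated, 42.8% of genes in the vector library had a lower FPKM than Npas4, and with Bic/4AP 99.1% did.

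Among 13217 genes compared in vector cultures, the Npas4 difference of 7.08 was second in size. The only larger one belonged to AF357355, a 54-bp small RNA locus listed at 0 untreated. In shRNA cultures the difference of 7.31 was the largest of 13320 genes. Npas4 was the only member at least 2-fold higher with Bic/4AP, 1 of 6, in either background. Over all compared genes, 2.22% were 2-fold higher in vector cultures and 2.08% in shRNA cultures. No member was called 2-fold lower on the log2(FPKM + 1) scale, against 0.272% and 0.158% of all genes. The vector count became 1 (Npas2, at 38.7% of its untreated FPKM) with a pseudocount of 0.1, with common-sum scaling and with the plain FPKM ratio.

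Promoter sequences of all 6 members were found in RefSeq (build GRCm38.p6, 250 bases before to 50 after each annotated start). Those of Npas4 and Arnt are shown because these were the 2 members higher with Bic/4AP in both backgrounds beyond the bounds, and that of Npas2 because its Bic/4AP difference was the lowest of the members. In the first 2, capitals mark the half-site of the cAMP response element, TGACG on either strand, the word recognised by CREB, an activity-regulated factor. In Npas2, capitals mark 3 words on either strand. TCGTG is described for Npas4 with Arnt. The word ACGTG is the core used by HIF and is contained in the E-box of clock factors. GCGTG is described for the dioxin receptor with Arnt.
Npas4, chr19:4989922-4990221, minus strand: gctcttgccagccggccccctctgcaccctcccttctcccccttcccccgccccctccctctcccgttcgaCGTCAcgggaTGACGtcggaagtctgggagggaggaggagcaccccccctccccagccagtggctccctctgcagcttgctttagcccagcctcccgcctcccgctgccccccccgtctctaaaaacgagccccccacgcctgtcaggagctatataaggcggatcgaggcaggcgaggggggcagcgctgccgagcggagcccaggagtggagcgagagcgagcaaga
Arnt, chr3:95434140-95434439, plus strand: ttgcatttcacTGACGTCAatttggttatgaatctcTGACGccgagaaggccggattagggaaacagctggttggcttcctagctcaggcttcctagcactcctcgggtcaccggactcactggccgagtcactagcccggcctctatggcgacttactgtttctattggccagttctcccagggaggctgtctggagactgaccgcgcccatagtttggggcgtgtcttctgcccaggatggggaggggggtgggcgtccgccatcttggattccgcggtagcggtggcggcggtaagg
Npas2, chr1:39194022-39194321, plus strand: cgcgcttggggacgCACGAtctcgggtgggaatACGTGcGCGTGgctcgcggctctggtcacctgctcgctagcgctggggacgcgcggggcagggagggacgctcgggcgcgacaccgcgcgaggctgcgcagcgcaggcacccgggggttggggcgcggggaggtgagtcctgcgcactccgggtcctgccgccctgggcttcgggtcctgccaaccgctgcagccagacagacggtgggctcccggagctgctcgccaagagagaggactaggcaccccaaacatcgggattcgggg

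The Npas4 window held 2 TGACG half-sites on opposite strands, starting 179 and 169 bases before the start. The Arnt window held 3, of which the 2 that overlap form the complete palindrome TGACGTCA 239 bases before the start. The other 4 members' windows held none. Of 32851 promoters of this length, 20.8% held the half-site and 1.79% the complete palindrome. Each of the Npas4 half-sites extends to 7 of the palindrome's 8 bases, TGACGTC on either strand, a word chosen after the sequences were seen and held by 3.21% of promoters. None of the 6 windows held a CArG box, the word recognised by SRF, or CACGTG, the E-box, which were in 1.63% and 7.15% of promoters. TCGTG was in the Npas1 and Npas2 windows and in 16.0% of all promoters. ACGTG was in the Npas2 and Npas3 windows and in 19.6% of promoters, and GCGTG was in those of Npas4, Npas2 and Arnt and in 32.4%. These are matches of letters, and binding was not measured here.

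**Figure D1:**
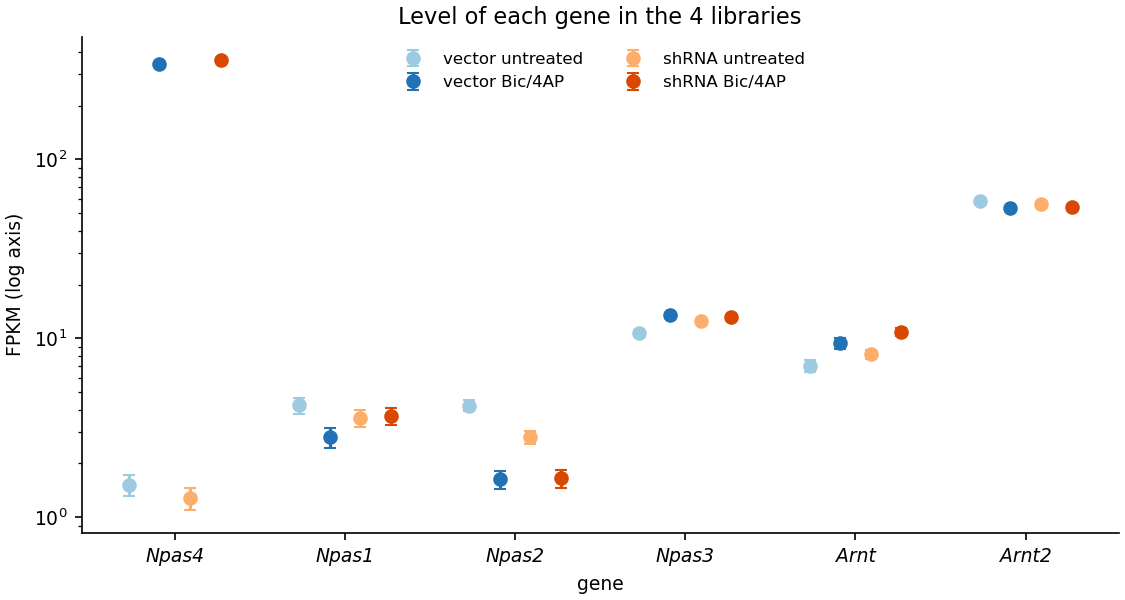
FPKM of the 6 genes (log axis) in the 4 libraries, 1 library per group; points are the authors' values and bars their bounds. Npas4 stands at 1.52 untreated and 340.1 with Bic/4AP in vector cultures and at 1.28 and 359.7 in shRNA cultures, while Arnt2 lies between 53.4 and 58.4 and Npas2 is lowest in both Bic/4AP libraries.

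Arnt2 was the most abundant member at rest. Its locus is on chromosome 7, from 91394789 to 91558469. In vector cultures the level was 58.4 (57.5 to 59.4) untreated, against 53.4 (52.4 to 54.3) with Bic/4AP. In shRNA cultures it was 56.1 (55.2 to 57.0) and 54.0 (53.1 to 54.9). The 4 values lay close together, with the untreated vector library highest. With Bic/4AP its level was 0.913 times the untreated level in vector cultures (0.883 to 0.943 by the bounds) and 0.962 times in shRNA cultures (0.932 to 0.994). The differences were -0.13 and -0.05, beside medians over all genes of -0.07 and -0.08, and the shRNA value took the other sign under median-ratio scaling.

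Arnt, on chromosome 3 from 95238312 to 95301161, was weaker at rest and higher with Bic/4AP. In vector cultures its FPKM was 7.02 (6.50 to 7.54) untreated, against 9.39 (8.78 to 10.0) with Bic/4AP. In shRNA cultures it was 8.14 (7.67 to 8.61) and 10.9 (10.4 to 11.5). Both Bic/4AP libraries lay above both untreated libraries, and no bounds overlapped between any of the 4. The ratio was 1.34 in vector (1.16 to 1.54) and also 1.34 in shRNA cultures, where the bounds allow 120.2% to 149.9% of the untreated level. The differences of 0.37 and 0.38 lay above those of 90.6% and 93.1% of compared genes and were below the 2-fold threshold. Arnt2 stood at 8.32 times the Arnt level in untreated vector cultures and 5.68 times with Bic/4AP, and at 6.89 and 4.94 times in shRNA cultures.

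The order of Npas4 and its partners was inverted between untreated and Bic/4AP cultures. Arnt2 stood at 38.5 times the Npas4 level in untreated vector cultures and 43.9 times in untreated shRNA cultures. With Bic/4AP, Npas4 stood at 6.37 times the Arnt2 level (6.21 to 6.55) in vector and 6.66 times (6.50 to 6.83) in shRNA cultures. Against the sum of Arnt and Arnt2 the Npas4 ratio was 0.0232 and 0.0199 untreated, and 5.42 and 5.54 with Bic/4AP. Of the summed FPKM of the 6 genes, Npas4 took 1.76% and 1.51% untreated and 80.8% and 81.2% with Bic/4AP. The other 3 Npas genes together stood at 0.292 times the sum of Arnt and Arnt2 in untreated vector cultures and 0.286 times with Bic/4AP, and at 0.294 and 0.285 times in shRNA cultures. That ratio was nearly the same in all 4 libraries, although with Bic/4AP Npas2 was lower in both backgrounds and Npas3 higher in vector cultures. These are ratios of transcripts, and protein was not measured.

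**Figure D2:**
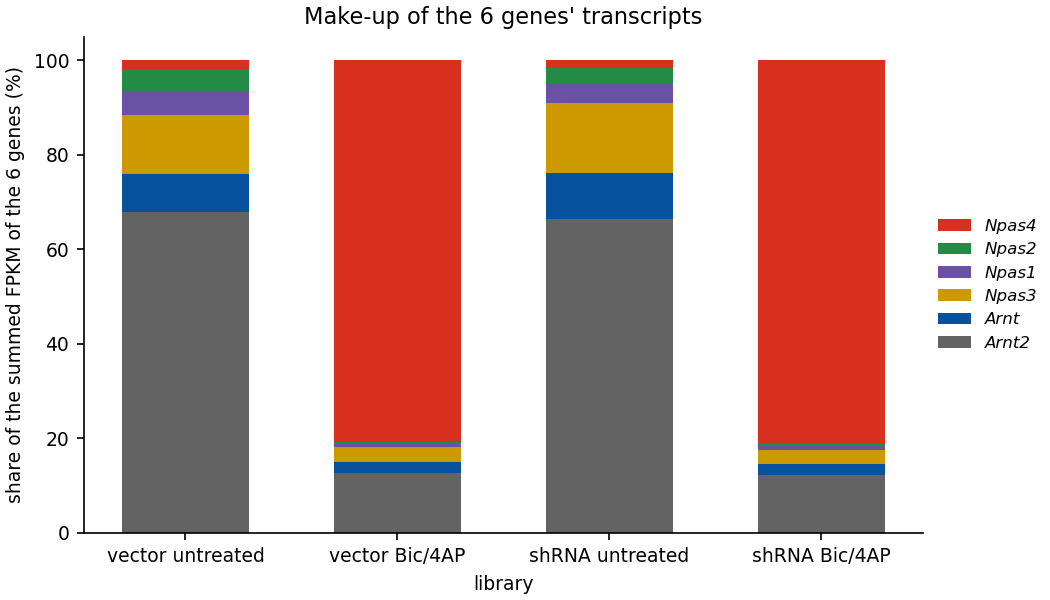
Share of the summed FPKM of the 6 genes that each gene took (percent, stacked to 100) in each of the 4 libraries. Arnt2 takes 67.9% and 66.5% of the untreated bars, and Npas4 takes 80.8% and 81.2% of the Bic/4AP bars.

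Npas2 went the opposite way to Npas4. It lies on chromosome 1 from 39251117 to 39420085. In vector cultures its FPKM was 4.20 (3.91 to 4.50) untreated, against 1.63 (1.44 to 1.82) with Bic/4AP. In shRNA cultures it was 2.80 (2.56 to 3.03) and 1.65 (1.46 to 1.84). The untreated vector library was highest, the untreated shRNA library intermediate, and the 2 Bic/4AP libraries lowest and overlapping in their bounds. The Bic/4AP level was 38.7% of the untreated level in vector cultures (31.9% to 46.6%) and 59.0% in shRNA cultures (48.2% to 71.8%). The vector difference of -0.99 lay just short of the 2-fold threshold, with 0.295% of compared genes lower. It passed the threshold, at -1.32, with a pseudocount of 0.1. In shRNA cultures the difference was -0.52, with 3.76% of genes lower.

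Npas1, on chromosome 7 from 17041070 to 17062129, differed with Bic/4AP in 1 background only by these bounds. In vector cultures its FPKM was 4.23 (3.80 to 4.67) untreated, against 2.81 (2.44 to 3.18) with Bic/4AP. In shRNA cultures it was 3.58 (3.18 to 3.97) and 3.69 (3.28 to 4.09). The vector Bic/4AP library was the low one, and the bounds of the other 3 overlapped one another without reaching it. The gap was narrow: its upper bound was 3.176, and the lower bound of the untreated shRNA library was 3.184. The Bic/4AP level was 66.4% of the untreated level in vector cultures (52.3% to 83.6%) and 103% in shRNA cultures (82.7% to 129%). The differences were -0.46 and 0.03. Since Npas1 is an interneuron gene, markers of inhibitory neurons are given beside it. The 9 markers summed to an FPKM of 1200 and 1206 in vector cultures and 580.0 and 851.9 in shRNA cultures, untreated and with Bic/4AP, and none was at 0. Sst was the largest part of each sum, at 538.5 and 541.6 in vector and 225.4 and 413.1 in shRNA cultures. Untreated, Calb2 (57.3 in vector and 57.2 in shRNA cultures), Pvalb (33.1 and 31.1) and Vip (2.18 and 2.44) differed little, and the other markers were lower with the hairpin. The median difference of the 9 markers with Bic/4AP was -0.02 in vector, a sign that differed under median-ratio and upper-quartile scaling, and 0.28 in shRNA cultures. The part of these cells in the Npas1 values was not tested.

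Npas3, on chromosome 12 from 54349664 to 55173162, was the most abundant of the Npas genes at rest. In vector cultures its FPKM was 10.7 (10.3 to 11.1) untreated, against 13.5 (13.0 to 13.9) with Bic/4AP. In shRNA cultures it was 12.5 (12.1 to 12.9) and 13.2 (12.7 to 13.6). The untreated vector library was the low one, and the bounds of the untreated and the Bic/4AP shRNA libraries overlapped. The ratio was 1.26 in vector (1.17 to 1.35) and 1.05 in shRNA cultures (0.985 to 1.13), with differences of 0.31 and 0.07. Npas3 is expressed in astrocytes as well as neurons, and the summed level of 5 astrocyte markers was 2087 untreated and 2331 with Bic/4AP in vector cultures, and 2132 and 2441 in shRNA cultures. Gfap made up most of that sum. In vector cultures 3 of the 5 markers were higher with Bic/4AP, while Aldh1l1 (35.7 untreated and 33.4 with Bic/4AP) and Gjb6 (1.01 and 0.689) were lower. Their part in the Npas3 values was not tested.

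In untreated vector cultures the order from the highest was Arnt2, Npas3, Arnt, Npas1, Npas2 and Npas4, and Npas1 and Npas2 overlapped in their bounds. Untreated shRNA cultures had the same order, with no neighbours overlapping. With Bic/4AP the order in both backgrounds was Npas4, Arnt2, Npas3, Arnt, Npas1 and Npas2, again without overlap between neighbours. For Bic/4AP against untreated, the bounds were apart for 6 of 6 members in vector cultures and for 4 of 6 in shRNA cultures, the exceptions being Npas1 and Npas3. Such separation was common, at 58.7% and 54.6% of all compared genes, and the bounds hold no variation between cultures.

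**Figure D3:**
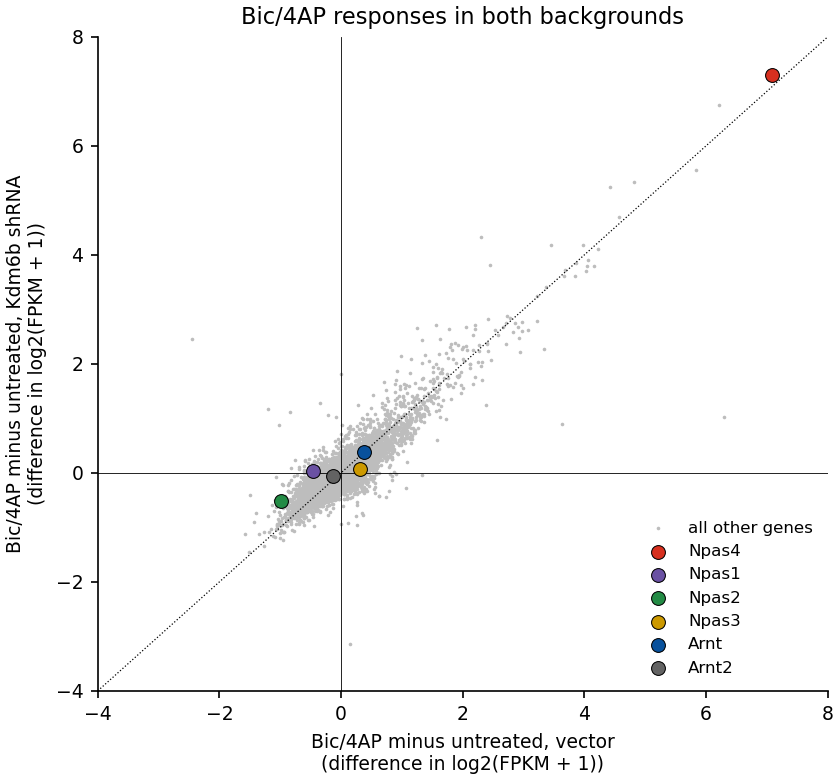
Bic/4AP minus untreated in vector cultures (x axis) against the same in shRNA cultures (y axis), both as differences in log2(FPKM + 1), for 13457 genes in grey and colour; 1 gene lies beyond the axes and the dotted line marks equality. Npas4 is at the upper right corner (7.08 and 7.31). Npas2 lies to the lower left of most genes (-0.99 and -0.52), with 0.295% of compared genes lower in vector and 3.76% in shRNA cultures.

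The hairpin comparisons set cultures with less Kdm6b RNA against vector cultures. They use the same 4 libraries as the comparisons above, so the values are not independent of them. No member was 2-fold apart: untreated, 0.414% of all compared genes were 2-fold higher and 0.669% 2-fold lower with the hairpin, and with Bic/4AP 0.189% and 0.536%. The bounds were apart for 4 of 6 members untreated (Npas2, Npas3, Arnt and Arnt2) and for 3 of 6 with Bic/4AP (Npas4, Npas1 and Arnt), against 55.2% and 49.7% of all genes.

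Untreated, the largest member difference was that of Npas2, whose shRNA level was 66.5% of the vector level (56.8% to 77.7%) and whose difference was -0.46. Npas4 stood at 84.1% (63.5% to 111%) and Npas1 at 84.4% (68.2% to 104%), so the bounds of both overlapped. Arnt2 stood at 96.0% (93.0% to 99.1%). On the other side, Npas3 stood at 117% (109% to 125%) and Arnt at 116% (102% to 132%). In the same comparison 4 of 9 inhibitory neuron markers were 2-fold lower, with a median of -0.57, and all 5 neuron markers lay below 0, with a median of -0.20. Of the microglia markers 4 were compared and 2 were 2-fold lower, with a median of -0.78. The part of these cells in the members' values was not tested.

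With Bic/4AP, Npas4 in shRNA cultures was 1.06 times its vector level (1.04 to 1.08), a difference of 0.08. The level of Npas1 was 1.31 times as high with the hairpin (1.03 to 1.68) and that of Arnt 1.16 times (1.04 to 1.31). In this comparison the 9 inhibitory neuron markers had a median of -0.39, with 6 below 0 and 1 of them 2-fold lower. Bounds were apart for all 9, against 49.7% of all compared genes. Of 3 microglia markers compared, 2 were 2-fold lower, with a median of -1.32, and the 5 neuron markers had a median of -0.03. The part of these cells was not tested here either. Npas2 (1.01 times, 0.803 to 1.28), Npas3 (0.976 times, 0.912 to 1.05) and Arnt2 (1.01 times, 0.978 to 1.05) had overlapping bounds. The Npas2 and Arnt2 differences took the other sign under median-ratio scaling. Only Arnt was higher with the hairpin by its bounds both untreated and with Bic/4AP, at 1.16 times in each case. Its differences were 0.19 and 0.20, beside medians over all genes of 0.05 and 0.03. Under median-ratio scaling they were 0.14 and 0.16. Untreated, the bounds were narrowly apart, with an upper bound of 7.54 in vector and a lower bound of 7.67 in shRNA cultures.

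The difference of the Bic/4AP responses, shRNA minus vector, was 0.49 for Npas1 and 0.47 for Npas2. The bounds allow -0.01 to 1.0 and 0.09 to 0.85. The sizes of these 2 values exceeded those of 97.9% and 97.5% of 13458 genes. It was -0.24 for Npas3 (-0.42 to -0.05), 0.23 for Npas4 (-0.03 to 0.48), 0.07 for Arnt2 (-0.02 to 0.17) and 0.01 for Arnt (-0.31 to 0.33). The bounds kept to 1 side of 0 for Npas2 and Npas3. How many of all genes have bounds that do so was not counted, and the bounds hold no variation between cultures.

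**Figure D4:**
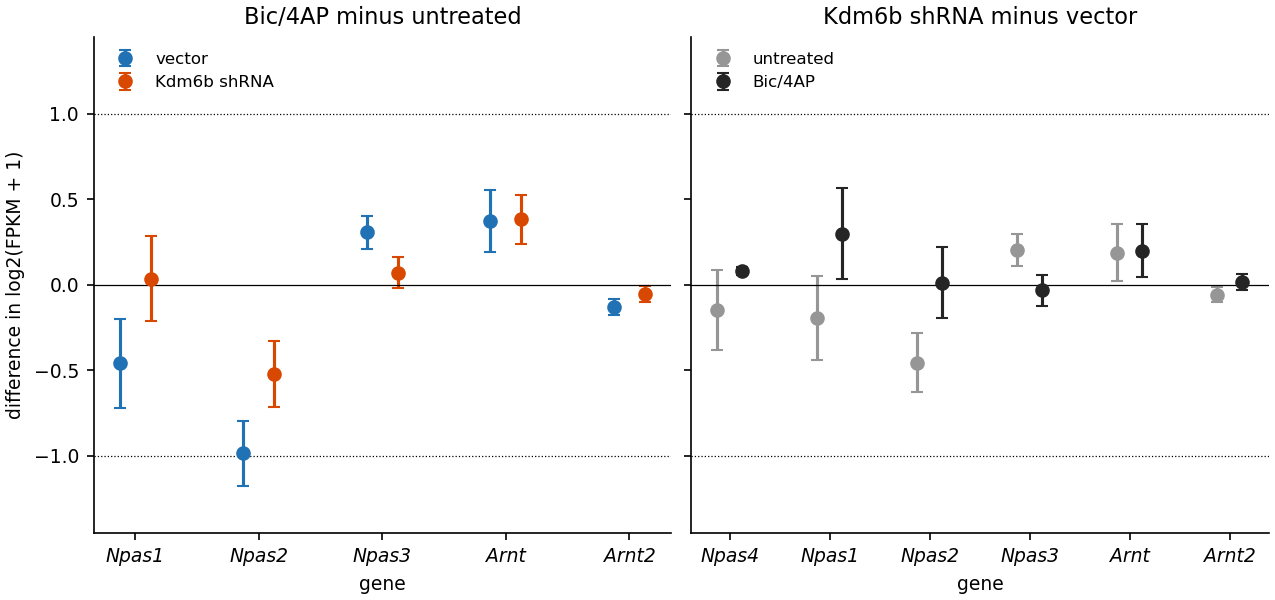
Differences in log2(FPKM + 1) for Bic/4AP minus untreated (left, without Npas4, whose values of 7.08 and 7.31 are off this scale) and Kdm6b shRNA minus vector (right); bars are the range the authors' bounds allow and dotted lines mark a 2-fold difference. Npas2 in vector cultures lies just above the lower line at -0.99, and Arnt lies above 0 at nearly equal heights in both backgrounds.

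The rest of the bHLH-PAS family was examined as 13 further genes, of which 8 reached an FPKM of 1. None of the 8 was 2-fold apart in any comparison, where at most 2.22% of all compared genes were 2-fold higher and 0.669% lower. With Bic/4AP the median difference of the 8 was 0.03 in vector and 0.04 in shRNA cultures, with 4 above and 4 below 0 in each. Hif1a, the hypoxia factor that pairs with Arnt, was the most abundant at 33.6 untreated and 42.2 with Bic/4AP in vector cultures and 35.2 and 38.5 in shRNA cultures. Ncoa1, a nuclear receptor coactivator of this family, had the lowest difference (-0.50 in vector, -0.37 in shRNA cultures). Clock, the relative of Npas2, stood at 11.0 and 10.5 in vector and 13.3 and 12.8 in shRNA cultures, so the levels with and without Bic/4AP were close. Their shared partner Arntl stood between 11.4 and 12.1 in all 4 libraries. The hairpin medians were 0.04 untreated and 0.01 with Bic/4AP, signs that differed under median-ratio scaling for the first and all 3 scalings for the second. Arntl2, Hif3a, Ahrr, Sim1 and Sim2 stayed between 0.00607 and 0.399.

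Among 7 genes described as Npas4 targets in neurons, 4 were 2-fold higher with Bic/4AP in each background and none 2-fold lower. Over all compared genes 2.22% and 2.08% were 2-fold higher, and 0.272% and 0.158% lower. The list was chosen with earlier results of these data known, so this contrast only describes the genes listed. Whether Npas4 acts on them here was not tested. The median of the 7 was 1.32 in vector and 1.72 in shRNA cultures, beside -0.07 and -0.08 over all genes. Arc, a regulator of AMPA receptor traffic, stood at 4.89 and 164.6 in vector and 3.61 and 185.2 in shRNA cultures. Plk2, a kinase that weakens synapses, stood at 68.1 and 172.2, and 61.5 and 205.4. The neurotrophin gene Bdnf stood at 17.1 and 60.4, and 17.7 and 80.0, and the pentraxin gene Nptx2 at 21.1 and 54.2, and 15.7 and 65.9. Each of these 4 was low in both untreated libraries and high in both Bic/4AP libraries. Syt10, a synaptotagmin gene, had the lowest difference, at -0.31 and -0.19. With Bic/4AP all 7 lay above 0 with the hairpin, from 0.17 (Arc) to 0.42 (Syt10), with a median of 0.28 against 0.03 over all genes. Untreated the median was 0.05, a sign that differed under median-ratio scaling.

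**Figure D5:**
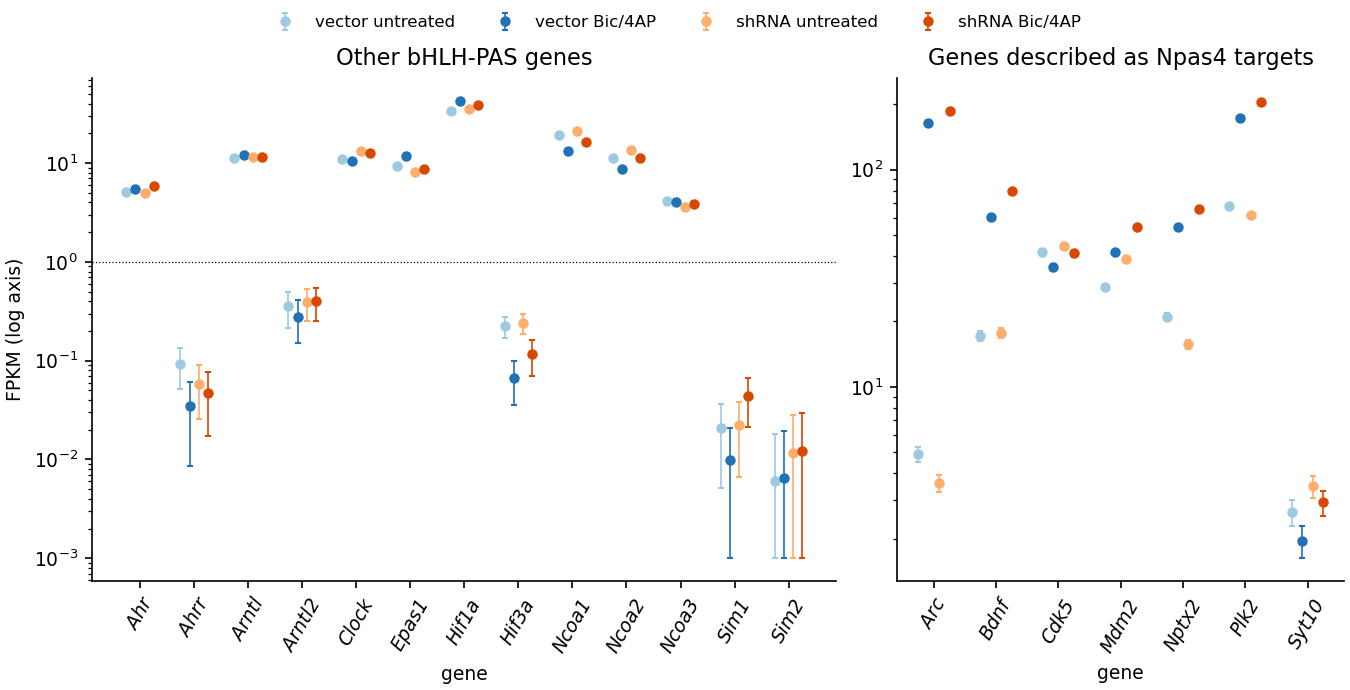
FPKM (log axes) in the 4 libraries of 13 other bHLH-PAS genes (left, dotted line at an FPKM of 1) and of 7 genes described as Npas4 targets (right); points are the authors' values, bars their bounds, and lower bounds of 0 are drawn to the lowest labelled tick. On the left no expressed gene is displaced as Npas4 is, and on the right Arc, Bdnf, Nptx2 and Plk2 lie higher in both Bic/4AP libraries.

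Factors that act upstream of Npas4 were described as a list of 6. All (Srf, Creb1, Elk1, Mef2a, Mef2c and Mef2d) were expressed. None was 2-fold apart in any comparison, where at most 2.22% of all compared genes were 2-fold higher and 0.669% lower. With Bic/4AP 5 of 6 lay below 0 in vector and 4 of 6 in shRNA cultures. The medians of the list were -0.22 and -0.13, beside -0.07 and -0.08 over all genes, so that most genes of the tables lay below 0 as well. Srf, the factor of the CArG box, stood at 0.16 and 0.07, Elk1, its cofactor, at -0.40 and -0.23, and Creb1 at -0.33 and -0.45. Mef2c was the most abundant, at 54.8 in untreated vector cultures.

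Clock output genes, driven by Npas2 or Clock with Arntl, were also described. Of 9 listed, 7 were compared, Per1 being marked as failed by the authors' software and Ciart not among the rows used. None was 2-fold apart in any comparison, where at most 2.22% of all compared genes were 2-fold higher and 0.669% lower. The Bic/4AP medians of the list were 0.00 in vector and -0.06 in shRNA cultures, with signs that differed under common-sum scaling for the first and median-ratio scaling for the second. Dbp, a clock-driven factor, had the lowest difference, with levels of 20.9 untreated and 11.3 with Bic/4AP in vector and 18.2 and 11.6 in shRNA cultures. The repressor gene Cry1 stood at 10.5 and 16.9, and 11.8 and 16.8, and Cry2 at 27.6 and 37.1, and 30.1 and 48.4, so both were higher with Bic/4AP in each background. Nr1d1, the repressor gene of the second loop, was the most abundant, between 65.0 and 68.7.

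The genes whose pattern was most like that of Npas4 were sought by the Euclidean distance between log2(FPKM + 1) values over the 4 libraries, each gene centred on its own mean. Of 13458 genes the 5 nearest were Fosb (distance 0.775), Fos (1.53), Arc (2.13), the prostaglandin synthase gene Ptgs2 (2.38) and the nuclear receptor gene Nr4a1 (2.57). Fosb stood at 2.91 and 287.3 in vector and 1.69 and 286.5 in shRNA cultures. The distance rests on 4 libraries. All 5 genes were higher with Bic/4AP in both backgrounds, which follows from choosing them by their nearness to Npas4.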

How the data were processed

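The tables hold FPKM with lower and upper bounds, computed by the authors for 22878 rows in each of 4 libraries. Build mm9 and the tools CASAVA (1.8), TopHat2 (2.0.8b) and Cufflinks (2.0.2) are listed, per the submitters' processing notes, without the role of each, and the annotation is not given in the sources used here. Per the labels' protocols, polyA RNA was sequenced with the Illumina TruSeq kit. Rows of 1 symbol were summed, symbols with a failed row and small RNA genes named as such were left out, and 21722 genes remained. Genes were compared at an FPKM of at least 1 in at least 1 compared library, with a pseudocount of 1. Since each group was 1 library, no difference between groups was tested. The step that makes the 2-fold calls was checked on simulated data. Start positions were found to count from 0 (98.3% of 479 microRNA loci) and are given from 1. No other row's locus overlapped a member's. Named genes were the 6 members, Kdm6b, the largest, smallest and most abundant member of each list, and the 5 genes nearest to Npas4; others were chosen after their values were seen. Members and lists were chosen with earlier results of these data known. Alternatives were the pseudocount, filter, scaling, small RNA genes, bounds and the highest row, plus an FPKM ratio without a pseudocount, added after seeing the data. Python 3.11.15, pandas 2.3.3 and numpy 2.4.6 were used.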

Additional observations from a re-analysis of the deposited data

Results flagged for a closer look

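Opposite directions in the 2 backgrounds or the 2 states drew attention to 5 of the 6 members. None of these differences was tested, since each state is 1 library in each background. Npas1 was lower with Bic/4AP in vector cultures (-0.46) and marginally higher in shRNA cultures (0.03), so the responses were 0.49 apart on the log2(FPKM + 1) scale. By the same arithmetic the hairpin difference of Npas1 was 0.49 higher with Bic/4AP than untreated. The hairpin difference also turned from below to above 0 for Npas2 (by 0.47), Npas4 (by 0.23) and Arnt2 (by 0.0743), and from above to below 0 for Npas3 (by -0.24). Each turn had a state in which the vector and shRNA bounds overlapped: untreated for Npas1 and Npas4, and with Bic/4AP for Npas2, Npas3 and Arnt2. Of these turns, the Npas2 and Arnt2 values with Bic/4AP were near 0 (0.01 and 0.02) and took the other sign under median-ratio scaling. How many of all genes turn in this way was not counted.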

How the results depend on the processing

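The count of members 2-fold higher with Bic/4AP was 1 under every alternative in both backgrounds, and no member was 2-fold apart in a hairpin comparison under any. The count of members 2-fold lower with Bic/4AP in vector cultures was 0, and became 1 (Npas2) with a pseudocount of 0.1, with common-sum scaling and with the FPKM ratio without a pseudocount. In all, 318 values were recomputed, from the member differences and the differences of their responses. Of these, 290 moved by less than the combined reach of the bounds and 28 moved further. That reach was combined as a root of summed squares, which is narrower than the ranges given elsewhere. Of the 318, 3 took the other sign, all under median-ratio scaling (Npas2 -0.01 and Arnt2 -0.02 for the hairpin with Bic/4AP, Arnt2 0.04 for Bic/4AP in shRNA cultures). Requiring an FPKM of 5 left no value where both compared libraries of a member lay below it. The numbers of all genes 2-fold apart were lowest with a pseudocount of 5 and highest without a pseudocount, except the last, which was highest with small RNA genes kept: from 171 to 401 higher and 0 to 153 lower with Bic/4AP in vector cultures (main 294 and 36), 160 to 374 and 1 to 112 in shRNA cultures (277 and 21), 11 to 175 and 32 to 170 for the hairpin untreated (55 and 89), and 4 to 124 and 26 to 133 with Bic/4AP (25 and 71). No paired analysis was possible because each group is 1 library. Without replicates, no alternative shows how the values vary between cultures.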

Other observations

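Other programmes that use Arnt as a partner were described in the same way. Of 12 hypoxia genes driven by HIF with Arnt, 1 was 2-fold higher with Bic/4AP in each background, beside 2.22% and 2.08% of all compared genes. This was the hexokinase gene Hk2 (2.93 untreated and 9.94 with Bic/4AP in vector cultures, 2.67 and 8.77 in shRNA cultures). The medians were 0.07 and 0.04, and 7 and 6 of the 12 lay above 0. Bnip3, a mitophagy gene, was the lowest in vector cultures (194.4 and 125.9). Pgk1, a glycolytic enzyme gene, was the most abundant, at 565.2 in untreated vector cultures. No hypoxia gene was 2-fold apart with the hairpin, where the medians were -0.07 untreated and -0.05 with Bic/4AP. In the hairpin comparisons at most 0.414% of all genes were 2-fold higher and 0.669% lower.

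Of 5 dioxin receptor genes driven by Ahr with Arnt, 3 reached an FPKM of 1. Tiparp, a mono-ADP-ribosyltransferase gene, stood at 9.91 and 59.2 in vector and 11.1 and 49.6 in shRNA cultures and was the only one 2-fold higher. Of all compared genes 2.22% in vector and 2.08% in shRNA cultures were 2-fold higher with Bic/4AP. Cyp1b1 stood at 47.3 and 78.6, and 56.8 and 76.9, whereas Cyp1a1, the classical Ahr target, stayed at or below 0.122. Medians with the hairpin were 0.15 untreated and -0.19 with Bic/4AP.

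Of 4 genes described as Npas1 or Npas3 targets, 3 were compared. The neuropeptide precursor gene Vgf was 2-fold higher with Bic/4AP (81.8 and 194.8 in vector, 62.2 and 168.4 in shRNA cultures), as were 2.22% and 2.08% of all compared genes. Reln, the reelin gene, stood at 16.1 and 13.3 in vector and 12.7 and 12.9 in shRNA cultures. With the hairpin all 3 lay below 0 both untreated (median -0.32) and with Bic/4AP (-0.19). Medians over all genes were 0.05 and 0.03. Bounds were apart for 3 untreated and for 2 with Bic/4AP, where Reln overlapped, against 55.2% and 49.7% of all compared genes.

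The gene Tmem160, whose locus lies within 5 kb of Npas1, was noticed after its values were seen. Its FPKM was 40.0 in untreated vector cultures, 22.2 with Bic/4AP, 22.9 in untreated shRNA cultures and 20.7 with Bic/4AP, so that, unlike for Npas1, 3 libraries were low.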
